A study of Mus musculus with 8 samples.

Results

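The unfolded protein and ATF4 response was followed through 36 genes chosen by name: the stress sensors and their transcription factors, stress effectors, amino acid enzymes and transporters driven by ATF4, protein folding genes of the endoplasmic reticulum (ER), and genes of ER-associated degradation. A gene was measured through a probe set annotated with its symbol alone, and 35 of the 36 genes had one, out of 19938 genes measured in this way by 21789 probe sets. Pycr1, an enzyme of proline synthesis, had none and has no value here. Pdia4 had 2 probe sets, and the one with the higher mean was used.

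The samples were adipose precursors (APs), the stromal cells that give rise to new fat cells, from male C57BL/6J mice aged 7 to 8 weeks. The mice had eaten a high-fat diet (HFD) or a standard diet (SD) for 3 days. APs were purified with magnetic beads, by removing cells carrying CD45 or CD31 and then retaining cells carrying SCA-1, from perigonadal visceral fat (viAPs) and from inguinal subcutaneous fat (scAPs), and were lysed without culture. HFD viAPs (replicates 5 and 6), SD viAPs (replicates 3 and 4), HFD scAPs (replicates 7 and 8) and SD scAPs (replicates 1 and 2) had 2 microarrays each, every one holding RNA pooled from 3 mice, so p-values measure the spread between pools. Levels are log2 intensities of the deposited values, differences are on the same log2 scale, and a gene is called when its limma p-value, adjusted over all 21789 probe sets, is under 0.05.

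The unfolded protein response senses misfolded proteins in the ER through 3 membrane sensors, PERK (gene Eif2ak3), IRE1 (gene Ern1) and ATF6. IRE1 splices the mRNA of the transcription factor XBP1, ATF6 is itself cut to release a transcription factor, and both raise the ER's folding and degradation machinery. PERK phosphorylates the translation factor eIF2, which lowers general translation and favours translation of ATF4, and ATF4 raises genes of amino acid synthesis, amino acid transport and stress feedback. Other kinases, among them one that senses amino acid shortage, feed into ATF4 by the same route. The arrays read mRNA levels, not splicing, cleavage, phosphorylation or translation.

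Promoters are shown because the branches read different elements. In RefSeq windows of GRCm38.p6, available for 33 of the 36 genes (all but Atf6, Slc7a5 and Manf), both strands of the 250 bases before each start were searched for exact letters, with no hit of one motif inside another among those shown. The ER stress element (ERSE), the blocks CCAAT and CCACG with 9 bases between them, was present for 4 of 7 ER folding genes (Calr, Canx, Pdia6 and Creld2), for 1 of 4 degradation genes (Syvn1) and for 0 of 10 amino acid genes, against 35 of 27025 genes with a window (0.13%). The related ERSE-II, ATTGG and CCACG with 1 base between them, was present for Herpud1 and for 10 of all genes (0.037%). The C/EBP-ATF response element (CARE), TGATG and AA with 1 base between them, was present for Asns, Pycr1, Chac1, Vldlr and Herpud1, and for 1056 of all genes (3.91%). The unfolded protein response element TGACGTGG was present for 0 of the 33 genes and for 163 of all genes (0.603%). A match is a description of letters and not evidence of binding. The stretches below belong to the 6 genes with a match whose change in viAPs was largest, written on the gene's strand with the motif in capitals. The capitals read as the reverse complement of the motif for Creld2, Vldlr and the second Herpud1 stretch.
Pdia6 (ERSE, chr12:17266471-17266529, starting 98 bases before the start site): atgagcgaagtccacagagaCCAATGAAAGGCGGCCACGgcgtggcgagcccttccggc
Creld2 (ERSE, chr15:88819500-88819558, 126 bases before): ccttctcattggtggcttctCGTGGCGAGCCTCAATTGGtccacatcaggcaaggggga
Canx (ERSE, chr11:50325780-50325838, 145 bases before, minus strand): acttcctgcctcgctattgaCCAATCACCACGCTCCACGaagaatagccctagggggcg
Vldlr (CARE, chr19:27216800-27216847, 200 bases before the second of its 2 starts): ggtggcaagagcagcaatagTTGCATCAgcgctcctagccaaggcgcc
Asns (CARE, chr6:7693210-7693252, 23 bases before, minus strand): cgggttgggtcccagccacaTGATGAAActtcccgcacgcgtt
Herpud1 (ERSE-II, chr8:94386357-94386407, 52 bases before): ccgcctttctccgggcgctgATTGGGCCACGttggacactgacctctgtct
Herpud1 (CARE, chr8:94386297-94386344, 112 bases before): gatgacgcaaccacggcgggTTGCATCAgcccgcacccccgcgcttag

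One array stood apart. The array labelled SD viAP replicate 4 carried a scAP-like pattern of depot genes: Tbx15, a transcription factor of subcutaneous fat, was at 9.77 there, against 4.70 on SD viAP replicate 3 and 9.34 to 9.67 on the scAP arrays, and Tcf21, a visceral transcription factor, was at 5.32, against 9.61 on replicate 3. With it omitted, the difference between HFD and SD viAPs moved by over 1.5 times or turned its sign for 15 of the 35 genes. In viAPs, both values are given for these genes and for those of the 35 whose call ended. In other comparisons, and for genes beyond the 35, calls that ended are mostly shown by counts alone. The 6 AP markers measured were present but not constant: Pdgfra ran from 11.01 to 11.56 over the 8 arrays and Dpp4 from 8.55 to 11.41. Pdgfrb had group means of 10.62 on HFD against 9.85 on SD in viAPs, and 10.85 against 9.97 in scAPs. In each depot, 4 of the 6 differed upwards on HFD. Ly6a, which encodes SCA-1, was not measured here. Of 6 mesothelial markers, 2 differed upwards in viAPs, among them Wt1, at 8.94 and 9.09 on HFD and 8.71 and 5.98 on SD. Markers of leukocytes and plasma cells lay at or below 7.84 on every array. Of 8 leukocyte markers, 6 were lower on both HFD viAP arrays than on both SD viAP arrays, as were 31.2% of all probe sets. Their median difference was -0.39 (-0.25 with SD viAP replicate 4 omitted), 1 differed upwards, and 0 were called. Of 5 mature adipocyte markers, Car3 and Plin1 were lower in HFD than SD viAPs (Car3 alone with SD viAP replicate 4 omitted), and the mean level of the 5 was 5.68 and 5.82 on the HFD viAP arrays, against 6.67 and 6.88 on the SD viAP arrays. Of 8 endothelial markers, 5 were higher in HFD than SD scAPs (1, Pecam1, once the array labelled SD viAP replicate 4 was omitted), and their mean level over all 8 was 7.64 and 7.65 on the HFD scAP arrays, 6.55 and 6.56 on the SD scAP arrays, and between 6.05 and 6.40 on the viAP arrays. Of 6 pericyte and smooth muscle markers, Myh11 was higher in HFD viAPs and Notch3 in HFD scAPs, and neither was called with SD viAP replicate 4 omitted. The mean level of the 6 was 7.19 and 6.83 in HFD viAPs, against 6.83 and 6.29 in SD viAPs, and 6.59 on both HFD scAP arrays, against 6.12 on both SD scAP arrays. The mean level of the 5 mature adipocyte markers was also lower in scAPs, at 6.10 and 6.33 on HFD against 6.81 and 6.87 on SD, with 0 called. In pools of cells, fewer cells of a type and less RNA per cell cannot be told apart.

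Of the 35 genes, 4 were called higher in HFD than SD viAPs and 0 lower: the disulfide isomerase gene Pdia6, the sensor gene Atf6, the ER chaperone gene Creld2 and the serine synthesis gene Psat1. Over all probe sets, 8.45% were called higher and 1.95% lower in this comparison, and 20.6% of the 7315 probe sets above a level of 7 on at least 3 arrays were called higher, a class that holds 31 of the 35 genes. The share of these genes that was called, 4 of 35, was thus not above that of other well-detected probe sets. At an unadjusted p under 0.05, 13 genes lay on the higher side (17.8% of all probe sets) and 2 on the lower side (11.6%). Both HFD viAP arrays lay above both SD viAP arrays for 25 genes (28.9% of all probe sets, 62.2% of those above 7). They lay below both for 4 genes, Ddit3, Trib3, Chac1 and Shmt2 (31.2% of all probe sets). The shares at an unadjusted p and below both were not counted among probe sets above 7. The median difference of probe sets above 7 was 0.30, against -0.05 for all probe sets.

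**Figure D1:**
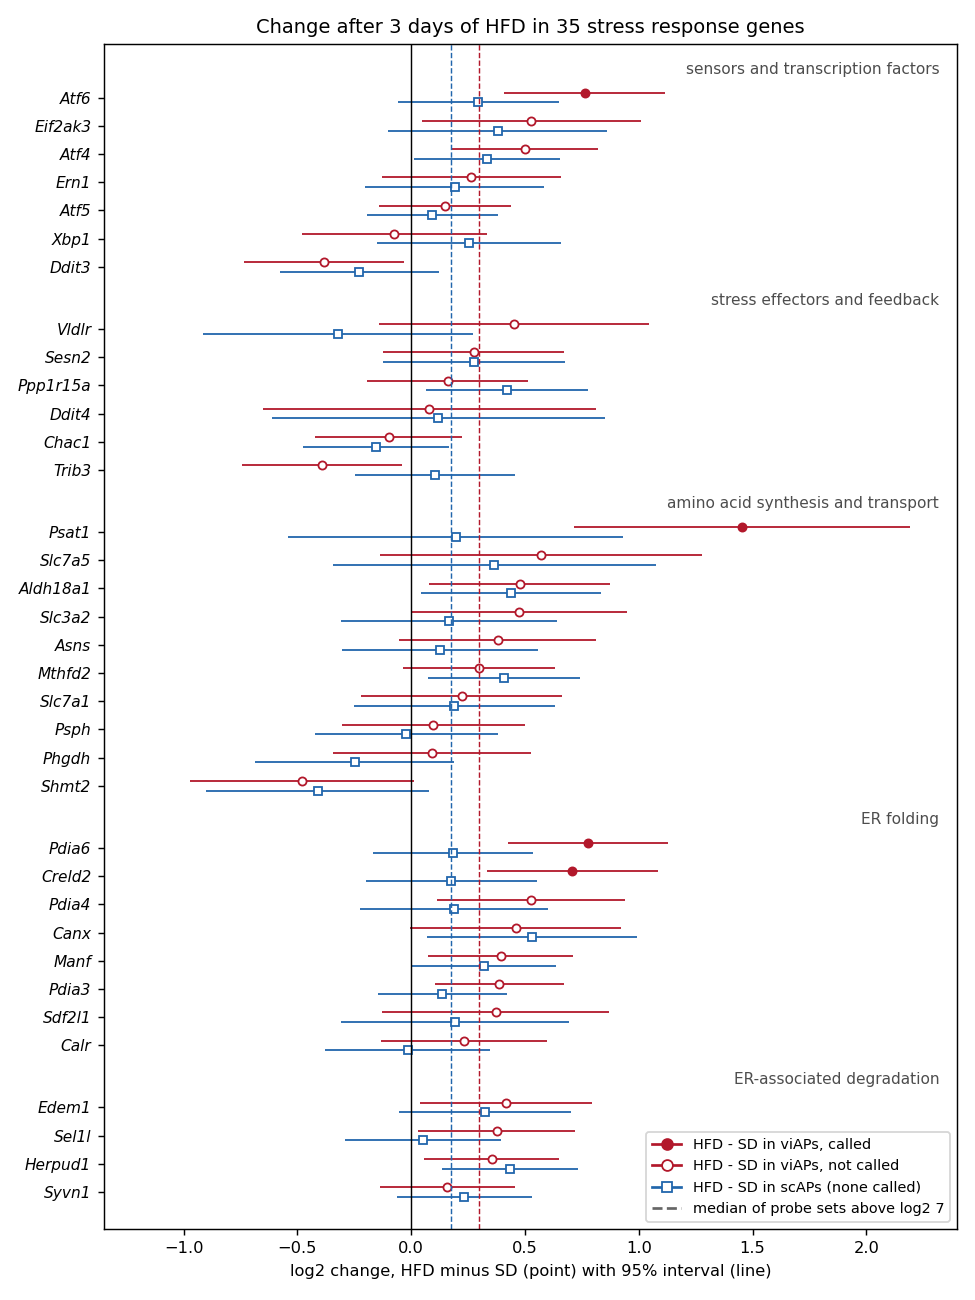
Log2 change of each of the 35 genes, HFD minus SD (horizontal axis), in viAPs (red circles, upper row of each gene) and scAPs (blue squares), with 95% intervals from limma, grouped by role and ordered by the viAP change. Filled symbols are called, which holds for Atf6, Psat1, Pdia6 and Creld2 in viAPs only, and dashed lines mark the median of the 7315 probe sets above log2 7, at 0.30 for viAPs and 0.18 for scAPs.

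The 4 calls depended on the arrays and the scaling. Once the array labelled SD viAP replicate 4 was omitted, 0 of the 35 genes were called in viAPs, while 0.909% of all probe sets were called higher. Leaving out HFD viAP replicate 5 or 6 also ended the 4 calls, and leaving out either HFD scAP array ended all but that of Creld2. The share of all probe sets called was not counted for these omissions. The HFD scAP arrays are in neither group compared, so omitting 1 changed only the shared estimate of spread and left the viAP differences unchanged. Omitting either gives the same fit for this comparison. Every omission leaves 1 array in a group and less information on the spread. With the methods' own filter on level and deviation, which kept 12 of the 35 genes, the same 4 were called, among 60.5% of the 3076 probe sets kept. After a second quantile normalization 0 genes were called in viAPs, while 833 of all 21789 probe sets were called higher and 253 lower. The part of the precursor, adipocyte, leukocyte, mesothelial and smooth muscle markers in these values was not tested.

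Among the sensors and their transcription factors, Atf6 stood out. Its levels were 8.68 and 8.74 in HFD viAPs and 7.88 and 8.02 in SD viAPs, so that the groups were far apart. The difference was 0.76 (SE 0.16, limma adjusted p = 0.0220), and 0.83 with SD viAP replicate 4 omitted (adjusted p = 0.0819). In scAPs, Atf6 was at 8.58 and 8.45 on HFD and at 8.41 and 8.03 on SD, a smaller gap of 0.29 (SE 0.16, adjusted p = 0.383).

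Atf4, the factor after which the amino acid branch is named, was at 9.52 and 9.37 in HFD viAPs and at 8.87 and 9.01 in SD viAPs. The groups did not overlap, and the difference of 0.50 (SE 0.14) did not pass the threshold (adjusted p = 0.0566). The median probe set above 7 differed by 0.30. In scAPs Atf4 was at 9.61 and 9.50 on HFD and at 9.34 and 9.10 on SD, a difference of 0.33 (adjusted p = 0.280). After a second quantile normalization the Atf4 difference was 0.15 in viAPs (limma adjusted p = 0.578) and 0.13 over both depots (adjusted p = 0.421). On the deposited values, Eif2ak3, the gene of the sensor kinase PERK, was at 8.23 and 8.06 in HFD viAPs and at 7.77 and 7.46 in SD viAPs (0.53, adjusted p = 0.139). Its scAP levels were 8.36 and 8.24 on HFD and 8.23 and 7.61 on SD, where SD replicate 1 nearly reached the HFD arrays.

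The other sensors and factors did not pass the test in either depot. Ern1, the gene of IRE1, was at 7.47 and 7.37 in HFD viAPs and at 6.93 and 7.38 in SD viAPs, and the groups overlapped (0.26, and 0.49 with SD viAP replicate 4 omitted). Xbp1, the target of IRE1, overlapped as well, at 9.61 and 9.60 in HFD viAPs and 9.92 and 9.43 in SD viAPs (-0.07, and -0.32 with the same array omitted), while in scAPs its HFD arrays (9.46 and 9.65) lay above the SD arrays (9.39 and 9.21). Atf5, a relative of ATF4 that is also controlled at translation, was at 9.15 and 9.02 in HFD viAPs and 8.98 and 8.89 in SD viAPs (0.15, adjusted p = 0.460).

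Ddit3 ran the other way. This gene encodes CHOP, a transcription factor that ATF4 raises under lasting stress and that is often read as a sign of it. It was at 7.59 and 7.61 in HFD viAPs and at 7.86 and 8.11 in SD viAPs, and at 7.42 and 7.75 in HFD scAPs and 7.81 and 7.82 in SD scAPs. The HFD arrays lay below the SD arrays in both depots, with differences of -0.38 (SE 0.15, adjusted p = 0.141) in viAPs and -0.23 (adjusted p = 0.507) in scAPs. After a second quantile normalization it was the 1 gene of the 35 called over both depots, and there it was lower on HFD. Of all 21789 probe sets, 641 were called lower in that setting, so 1 such call does not set these genes apart.

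**Figure D2:**
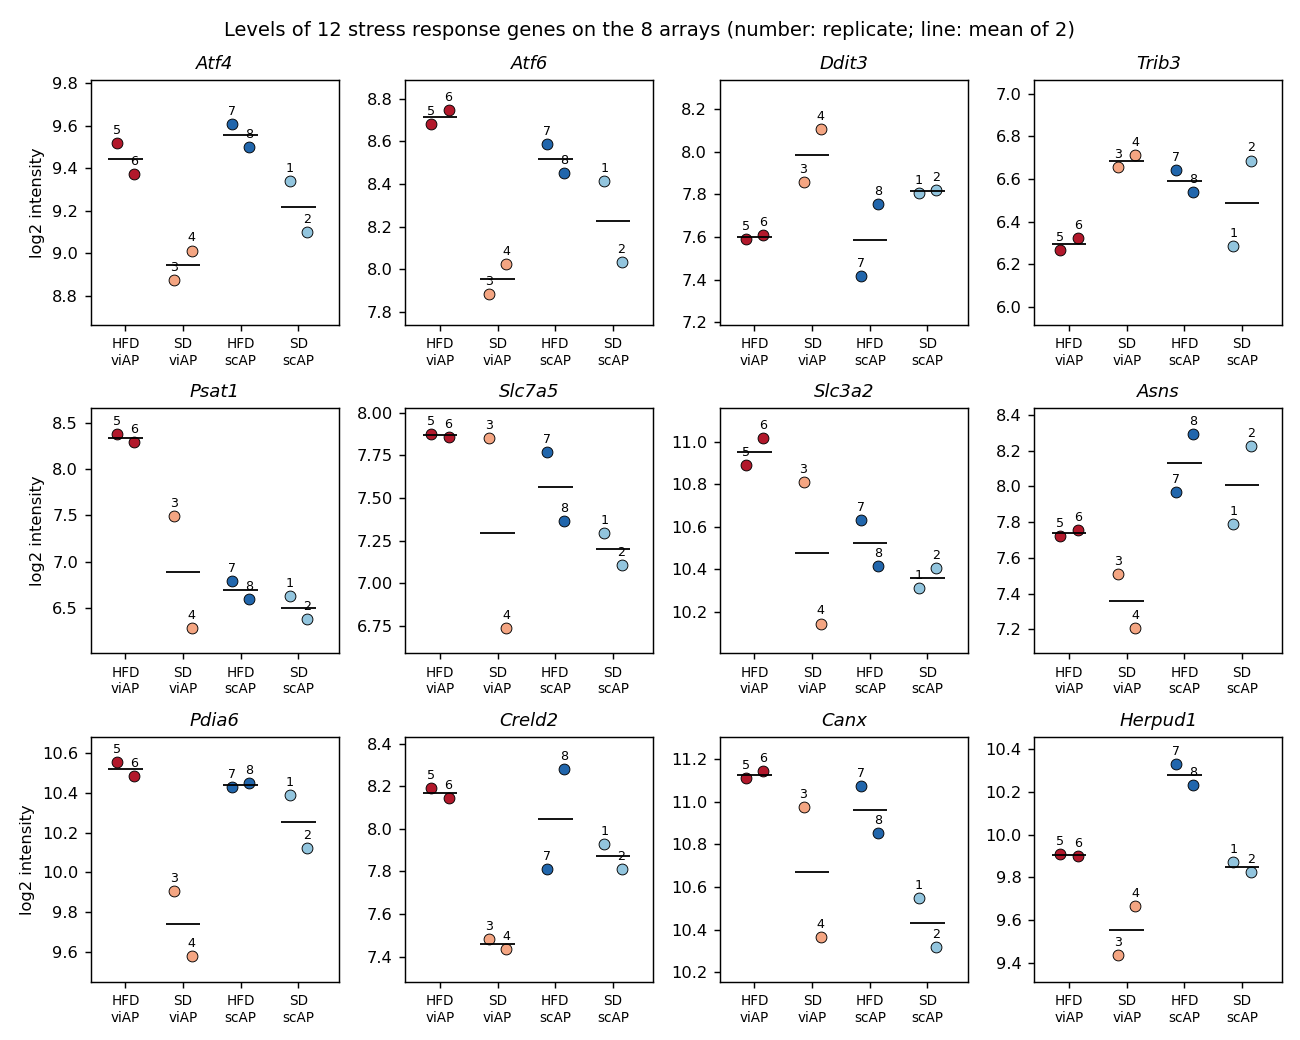
Log2 intensity (vertical axis, own scale per panel, spanning at least 1 log2 unit) of 12 of the genes on each of the 8 arrays, by diet and depot (horizontal axis), with the replicate number at each point and a line at the mean of 2 arrays. Atf4, Atf6, Pdia6, Creld2 and Herpud1 are higher on both HFD viAP arrays than on both SD viAP arrays, Ddit3 and Trib3 are lower, and the SD viAP arrays are far apart for Psat1, Slc7a5, Slc3a2 and Canx.

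None of the 6 stress effector and feedback genes was called in either depot, and their median difference was 0.12 in viAPs (0.061 with SD viAP replicate 4 omitted) and 0.11 in scAPs. Trib3, a pseudokinase that ATF4 and CHOP induce and that restrains them, was at 6.27 and 6.32 in HFD viAPs and at 6.66 and 6.71 in SD viAPs. The groups did not overlap there (-0.39, SE 0.15, adjusted p = 0.134), but in scAPs its arrays overlapped, at 6.64 and 6.54 on HFD and 6.29 and 6.69 on SD. Chac1, a glutathione-degrading enzyme induced by ATF4, was between 6.30 and 6.63 on all 8 arrays. Trib3, Chac1, Psph and Mthfd2 were the genes that lay above 7 on 0 arrays, and 24 of the 35 lay above it on all 8.

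Ppp1r15a encodes GADD34, the phosphatase subunit that restores eIF2 and ends the translational block. It was at 9.26 and 9.29 in HFD viAPs and 9.12 and 9.10 in SD viAPs, and at 9.18 and 9.30 in HFD scAPs and 9.03 and 8.61 in SD scAPs, without overlap in either depot. The differences were 0.16 (adjusted p = 0.519) in viAPs and 0.42 (adjusted p = 0.225) in scAPs. Sesn2, a leucine-binding restraint on the growth kinase mTORC1, was at 7.46 and 7.40 in HFD viAPs and 6.99 and 7.32 in SD viAPs (0.27, and 0.44 with SD viAP replicate 4 omitted), and at 7.48 and 7.42 in HFD scAPs and 7.38 and 6.97 in SD scAPs (0.28). Ddit4, another inhibitor of mTORC1, overlapped in both depots and had the widest spread of this role, with 8.10 and 6.99 on the SD scAP arrays.

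Vldlr, the receptor for very-low-density lipoprotein, was the one gene of the 35 whose HFD arrays lay above the SD arrays in viAPs and below them in scAPs. It was at 9.44 and 9.56 in HFD viAPs and at 9.43 and 8.66 in SD viAPs, and at 9.08 and 9.04 in HFD scAPs and 9.66 and 9.11 in SD scAPs. The visceral difference was 0.45 (adjusted p = 0.276) on all arrays and 0.06 once the array labelled SD viAP replicate 4 was omitted. The difference between the depots' changes was 0.77 (SE 0.37, adjusted p = 0.698) on all arrays and 0.39 (adjusted p = 0.847) with that array omitted.

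Among the 10 amino acid genes, Psat1 had the largest difference of all 35 genes. It encodes phosphoserine aminotransferase, an enzyme of serine synthesis. Its levels were 8.38 and 8.30 in HFD viAPs, against 7.49 and 6.29 in SD viAPs, and 6.79 and 6.60 in HFD scAPs, against 6.63 and 6.38 in SD scAPs. The HFD viAP arrays thus stood above all the others, and the array labelled SD viAP replicate 4 was the lowest of the 8. The viAP difference was 1.45 (SE 0.32, limma adjusted p = 0.0288) with that array and 0.85 without it, where it was not called. Leaving out either SD scAP array, in neither group compared, left the difference unchanged and gave the same fit, in which it was not called. The scAP difference was 0.19 (SE 0.32, adjusted p = 0.818).

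The other enzymes of serine synthesis were not called. Phgdh, the first enzyme of the pathway, overlapped in viAPs, at 7.08 and 7.23 on HFD and 6.75 and 7.37 on SD (0.09, and 0.40 with SD viAP replicate 4 omitted), and in scAPs its HFD arrays (6.91 and 6.89) lay below the SD arrays (7.17 and 7.13). Psph, which removes the phosphate in the last step, overlapped in both depots, at 6.77 and 6.79 in HFD viAPs and 6.85 and 6.52 in SD viAPs (0.10, and -0.06 with the same array omitted). Shmt2, which turns serine into glycine in mitochondria, lay lower on both HFD arrays in both depots, at 6.79 and 6.58 in HFD viAPs and 6.88 and 7.46 in SD viAPs, and at 6.54 and 6.95 in HFD scAPs and 7.23 and 7.09 in SD scAPs. Its viAP difference was -0.48 (adjusted p = 0.178) on all arrays and -0.19 (adjusted p = 0.634) with SD viAP replicate 4 omitted, and its scAP difference was -0.41 (adjusted p = 0.380). Of the 35 genes, 2, Shmt2 and Ddit3, lay lower on both HFD arrays in each depot, as did 10.7% of all probe sets. That share was not counted among probe sets above 7.

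Mthfd2, the next enzyme of mitochondrial one-carbon metabolism, lay on the opposite side from Shmt2. It was at 6.92 and 7.00 in HFD viAPs and 6.55 and 6.77 in SD viAPs, and at 6.94 and 6.66 in HFD scAPs and 6.43 and 6.36 in SD scAPs. Aldh18a1, which opens proline synthesis, was at 8.81 and 8.67 in HFD viAPs and 8.16 and 8.37 in SD viAPs, and at 8.80 and 8.59 in HFD scAPs and 8.47 and 8.04 in SD scAPs. In each depot both HFD arrays lay above both SD arrays for these 2 genes, and their differences (0.30 and 0.48 in viAPs, 0.41 and 0.44 in scAPs) did not pass the test in either depot alone.

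Asns, the asparagine synthetase gene whose promoter carries a CARE, was at 7.72 and 7.75 in HFD viAPs and 7.51 and 7.21 in SD viAPs (0.38, adjusted p = 0.218, and 0.23, adjusted p = 0.594, with SD viAP replicate 4 omitted). In scAPs it overlapped, at 7.97 and 8.29 on HFD and 7.79 and 8.22 on SD. All 4 viAP arrays lay below all 4 scAP arrays for this gene, with viAP minus scAP differences of -0.40 (adjusted p = 0.541) on HFD and -0.65 (adjusted p = 0.307) on SD.

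For the transporter genes, the viAP differences depended on 1 array. Slc3a2 and Slc7a5 encode the heavy and light chains of the exchanger that imports large neutral amino acids. Slc7a5 was at 7.88 and 7.86 in HFD viAPs, and at 7.85 on SD viAP replicate 3 but 6.74 on the array labelled SD viAP replicate 4. Slc3a2 was at 10.89 and 11.02 in HFD viAPs, and at 10.81 and 10.15 on the same SD arrays. The differences of 0.57 for Slc7a5 and 0.47 for Slc3a2 became 0.02 and 0.14 without that array, and for Slc7a1, the cationic amino acid transporter, the difference was 0.22 with it and -0.07 without it.

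All 8 ER folding genes had both HFD viAP arrays above both SD viAP arrays, as had 62.2% of probe sets above 7. Pdia6, a protein disulfide isomerase, was at 10.55 and 10.49 in HFD viAPs and at 9.91 and 9.58 in SD viAPs. Its difference was 0.78 (SE 0.16, adjusted p = 0.0203), and 0.61 with SD viAP replicate 4 omitted (adjusted p = 0.0992). In scAPs it was at 10.43 and 10.45 on HFD and 10.39 and 10.12 on SD, so that the SD viAP arrays were the lowest of the 8, by 0.51 on average against SD scAPs (a difference of -0.51, adjusted p = 0.309).

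Creld2, an ER-resident and secreted chaperone, also had its lowest levels on the SD viAP arrays. It was at 8.19 and 8.14 in HFD viAPs and at 7.48 and 7.43 in SD viAPs, with little spread in either group. The difference was 0.71 (SE 0.16, adjusted p = 0.0329), and 0.68 with SD viAP replicate 4 omitted (adjusted p = 0.139). In scAPs the arrays overlapped, at 7.81 and 8.28 on HFD and 7.93 and 7.81 on SD.

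The other disulfide isomerases and chaperones lay higher on HFD in viAPs by less. Pdia4 was at 10.36 and 10.19 in HFD viAPs and 9.94 and 9.55 in SD viAPs (0.53, adjusted p = 0.0983, and 0.33, adjusted p = 0.369, with SD viAP replicate 4 omitted). Pdia3 was at 11.38 and 11.26 in HFD viAPs and 10.97 and 10.89 in SD viAPs (0.39, adjusted p = 0.0820). Manf, a secreted ER stress factor, was at 7.60 and 7.55 in HFD viAPs and 7.22 and 7.15 in SD viAPs (0.39, adjusted p = 0.106), and its HFD scAP arrays (7.59 and 7.79) also lay above the SD scAP arrays (7.49 and 7.26). Sdf2l1, a partner of the ER chaperone BiP, was at 7.64 and 7.67 in HFD viAPs and 7.49 and 7.07 in SD viAPs (0.37, and 0.16 with the same array omitted), and overlapped in scAPs.

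Calnexin and calreticulin, the paired lectin chaperones that hold newly made glycoproteins, differed in pattern. Canx, the membrane-bound one, was at 11.11 and 11.14 in HFD viAPs and 10.97 and 10.36 in SD viAPs (0.46, and 0.15 with SD viAP replicate 4 omitted), and at 11.07 and 10.85 in HFD scAPs and 10.55 and 10.32 in SD scAPs. Its scAP difference of 0.53 (SE 0.20, adjusted p = 0.239) was the largest of the 35 genes in that depot. Calr, the soluble one, was at 11.63 and 11.58 in HFD viAPs and 11.35 and 11.40 in SD viAPs (0.23, adjusted p = 0.360). In scAPs Calr overlapped, with its highest level, 11.81, on SD replicate 1.

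The 4 degradation genes were also above on both HFD viAP arrays, and none was called. Herpud1, a membrane protein that organises the degradation complex, was at 9.91 and 9.90 in HFD viAPs and 9.44 and 9.67 in SD viAPs, and at 10.33 and 10.23 in HFD scAPs and 9.87 and 9.83 in SD scAPs. The groups were apart in both depots, with differences of 0.35 (SE 0.13, adjusted p = 0.118) and 0.43 (SE 0.13, adjusted p = 0.142). Edem1, which picks misfolded glycoproteins, was at 8.17 and 8.26 in HFD viAPs and 7.70 and 7.91 in SD viAPs, and at 8.35 and 8.16 in HFD scAPs and 8.13 and 7.73 in SD scAPs. Sel1l and Syvn1, the adaptor and the ubiquitin ligase of the same complex, differed by 0.38 and 0.16 in viAPs and by 0.05 and 0.23 in scAPs.

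In scAPs, 0 of the 35 genes were called in either direction, against 1.06% of all probe sets higher and 0.110% lower, and 7 had an unadjusted p under 0.05, all on the higher side (10.8% of all probe sets, with 5.89% on the lower side). Both HFD scAP arrays lay above both SD scAP arrays for 18 genes (21.7% of all probe sets, 44.3% of those above 7). They lay below both for 4 genes (18.8% of all probe sets), Ddit3, Vldlr, Phgdh and Shmt2. As in viAPs, the shares at an unadjusted p and below both were not counted among probe sets above 7. The median difference of probe sets above 7 was 0.18, against -0.0045 for all probe sets. The part in these values of Pdgfrb and of the endothelial and pericyte markers, which lay higher in the same HFD scAP pools, was not tested. Nor was that of the mature adipocyte markers, which lay lower there.

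Over both depots, 10 of the 35 genes were higher on HFD and 0 lower, against 12.1% and 4.96% of all probe sets and 29.8% higher among those above 7. They were the factor genes Atf4 (0.42, adjusted p = 0.0245) and Atf6 (0.53, adjusted p = 0.0152), the amino acid genes Psat1 (0.82), Aldh18a1 (0.46) and Mthfd2 (0.35), the folding genes Canx (0.49), Pdia6 (0.48), Creld2 (0.44) and Manf (0.36), and the degradation gene Herpud1 (0.39, adjusted p = 0.0235). Of these, Atf4, Atf6, Mthfd2, Aldh18a1, Canx, Pdia6, Manf and Herpud1 were higher on both HFD arrays in each depot, as were 16 of the 35 genes in all, 14.9% of all probe sets and 36.4% of those above 7. With SD viAP replicate 4 omitted, 4 genes were called higher, as were 8.34% of all probe sets: Atf4 (0.45, adjusted p = 0.0470), Atf6 (0.56, adjusted p = 0.0399), Psat1 (0.52, adjusted p = 0.0367) and Herpud1 (0.45, adjusted p = 0.0279). No call was left without either HFD viAP array or without HFD scAP replicate 8. Creld2 alone stayed called without HFD scAP replicate 7, and Atf6 alone without SD scAP replicate 2. The share of all probe sets called was not counted without these arrays. With the methods' filter, 6 of the 12 genes kept were called higher and Shmt2 lower (-0.45), against 66.9% and 5.66% of the probe sets kept.

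The ER folding genes and the amino acid genes were set side by side across the 4 groups. They differed in level, with array means of 9.18 to 9.81 for the folding genes and 7.43 to 7.92 for the amino acid genes. Psph and Mthfd2 lay above 7 on 0 arrays, so probe sets above 7 are a less close reference for the amino acid genes. A reference matched by level was not computed. The median difference in viAPs was 0.43 for the 8 folding genes (0.23 to 0.78) and 0.34 for the 10 amino acid genes (-0.48 to 1.45), against 0.30 for probe sets above 7 and -0.05 for all probe sets. With SD viAP replicate 4 omitted the medians were 0.34 and 0.19, against 0.28 for probe sets above 7. The HFD viAP arrays lay wholly above the SD viAP arrays for 8 of 8 folding genes and 6 of 10 amino acid genes, against 62.2% of probe sets above 7, and the difference between the roles was not tested. In scAPs the medians were 0.19 and 0.18, against 0.18 for probe sets above 7, and 4 of 8 and 4 of 10 genes were wholly above, against 44.3% of probe sets above 7.

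By array, each gene's level was taken as its deviation from its own mean over the 8 arrays. The folding genes' median deviation was 0.27 and 0.24 in HFD viAPs, against -0.18 and -0.38 in SD viAPs, and -0.00021 and 0.19 in HFD scAPs, against 0.03 and -0.17 in SD scAPs. The amino acid genes' median deviation was 0.21 and 0.18 in HFD viAPs, against 0.02 and -0.27 in SD viAPs, and 0.11 and -0.09 in HFD scAPs, against -0.05 and -0.23 in SD scAPs. Both roles were thus highest on the HFD viAP arrays and lowest on SD viAP replicate 4. Probe sets above 7 had the same order between diets, with 0.16 and 0.10 in HFD viAPs, against -0.13 and -0.18 in SD viAPs.

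**Figure D3:**
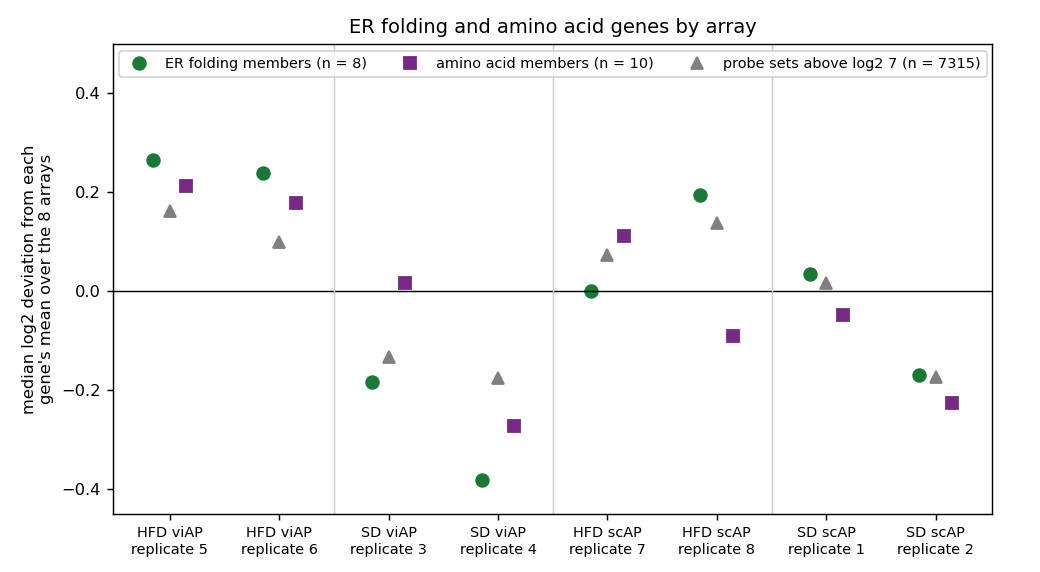
Median log2 deviation from each gene's mean over the 8 arrays (vertical axis) on each array (horizontal axis) for the 8 ER folding genes (green circles), the 10 amino acid genes (purple squares) and the 7315 probe sets above log2 7 (grey triangles). The folding genes are at 0.27 and 0.24 on the HFD viAP arrays and at -0.18 and -0.38 on the SD viAP arrays, and the amino acid genes are near 0 on SD viAP replicate 3.

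The diet change was larger in viAPs than in scAPs for 24 of the 35 genes (21 with SD viAP replicate 4 omitted), but 0 passed the test of that difference, against 0.00459% of all probe sets higher and 0% lower. The folding genes' changes differed by a median of 0.25 and the amino acid genes' by 0.16, against 0.11 for probe sets above 7. With SD viAP replicate 4 omitted these medians were 0.18 and 0.050, against 0.095. Psat1 came first at 1.26 (SE 0.46, 95% interval 0.22 to 2.30, adjusted p = 0.615), followed by Vldlr and by Pdia6 at 0.59 (interval 0.10 to 1.09, adjusted p = 0.615). Without SD viAP replicate 3, Psat1 was called in this test (1.86, adjusted p = 0.0402), and without the array labelled replicate 4 it was at 0.65 (adjusted p = 0.692).

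Between the depots on SD, 0 of the 35 genes were called, as were 0% of all probe sets in either direction. With SD viAP replicate 4 omitted, 0 genes were still called, against 0.500% of all probe sets higher and 0.431% lower. On HFD, 0 genes were called, against 1.07% higher and 0.436% lower. Psat1 lay closest, higher in HFD viAPs than HFD scAPs by 1.64 (SE 0.32, interval 0.91 to 2.38, adjusted p = 0.0505). It passed with the methods' filter (3.15% of the probe sets kept), and also when SD viAP replicate 3 or 4, which are in neither group and enter only through the shared estimate of spread, was left out (adjusted p = 0.00394 for each, with 1.81% of all probe sets called higher without replicate 4). Herpud1 lay the other way, at -0.38 on HFD (adjusted p = 0.289).

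The wider pathways were read through 86 further genes, of which 79 were measured. In viAPs, 28 were called higher and 1 lower, by role 13 of 30 genes of ER folding and translocation, 4 of 11 of ER-associated degradation, 7 of 23 amino acid and tRNA synthetase genes and 4 of 15 stress regulators. The shares over all probe sets were 8.45% higher and 1.95% lower, and 20.6% higher among those above 7. With SD viAP replicate 4 omitted the count was 2, Txndc5 and Ppp1r15b, against 0.909% of all probe sets, while the median difference over the 79 genes was 0.34, against 0.33 on all arrays. No call was left without either HFD viAP array, and fewer were left without either HFD scAP array or SD viAP replicate 3. For these arrays, the share of all probe sets called was not counted.

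Among the folding genes, the disulfide enzymes Dnajc10 (0.95, adjusted p = 0.0227) and Txndc5 (0.94, adjusted p = 0.00576), the cargo coat gene Sec24d (0.90) and the glycosylation gene Stt3a (0.87) led. Txndc5 was at 10.07 and 10.03 in HFD viAPs and 9.13 and 9.08 in SD viAPs. The 1 lower gene, Sec61b, encodes the small beta subunit of the translocation channel, and was at 7.79 and 7.77 in HFD viAPs and 8.38 and 8.40 in SD viAPs. Among degradation genes, Derl1 (0.91), Edem3 (0.75), the ATPase gene Vcp (0.74) and Ube2j1 (0.65) led.

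In the ATF4 branch, the tRNA synthetase gene Eprs (1.04, adjusted p = 0.0130), the glycine transporter gene Slc6a9 (0.78), and the neutral amino acid transporter genes Slc1a5 (0.78) and Slc38a2 (0.75) led. Eprs was at 9.76 and 9.56 in HFD viAPs and 8.86 and 8.38 in SD viAPs. Among regulators, Creb3l2 (0.98) and Creb3l1 (0.72), membrane-bound relatives of ATF6, rose together with Mbtps1 (0.81), the protease that cuts such factors in the Golgi, and Ppp1r15b (0.74), the constitutive eIF2 phosphatase subunit.

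In scAPs, Creb3l1 alone was called of the 79 (1.06% of all probe sets higher), at 10.50 and 10.47 on HFD and 9.79 and 9.47 on SD (0.85, adjusted p = 0.0457, and 0.0660 with SD viAP replicate 4 omitted). Over both depots 32 were called higher and 1 lower, against 12.1% and 4.96% of all probe sets and 29.8% higher among those above 7. Fewer were called higher with SD viAP replicate 4 omitted, or with any 1 of the HFD arrays omitted. Without SD viAP replicate 4 the median difference over the 79 genes was 0.32, against 0.28 on all arrays. For the HFD arrays, the share of all probe sets called was not counted. Between the depots on HFD, Aldh1l2, a mitochondrial folate enzyme, was lower in viAPs, at 5.93 and 5.67, against 7.26 and 7.16 in scAPs (-1.41, adjusted p = 0.0242).

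**Figure D4:**
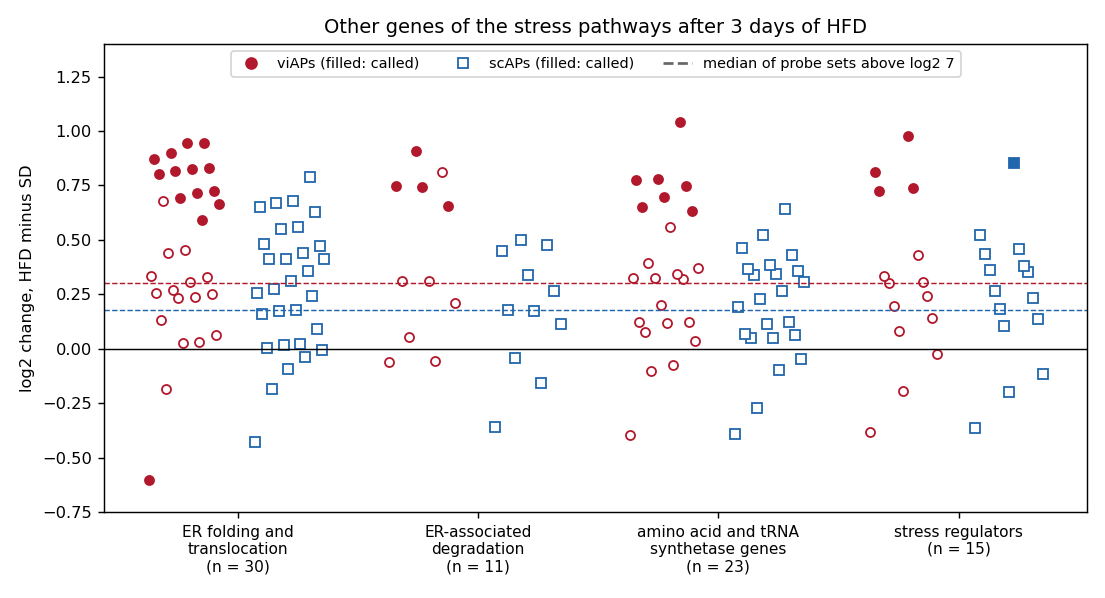
Log2 change, HFD minus SD (vertical axis), of the 79 other measured genes of the pathways by role (horizontal axis) in viAPs (red circles) and scAPs (blue squares), 1 point per gene spread sideways for legibility, filled where called. In viAPs 28 genes are called higher and 1 lower, in scAPs 1 higher, and dashed lines mark the median of the probe sets above log2 7, at 0.30 and 0.18.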

How the data were processed

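For each array, the authors deposited a single intensity for every probe set of Affymetrix Mouse Gene 1.0 ST design. The submitters' processing notes name RMA in Expression Console 1.1, whereas the study's methods name the oligo package for R. The return from the log scale and the rounding to whole numbers are not described in either. The deposited values ran from 4 to 18487 on a linear scale and were taken to log2 with no further scaling. Scan dates and slides are not given in the sources used here. With 2 arrays per group, precision is limited by their number.

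Of 35556 probe sets, 21789 carried 1 symbol, 1621 several and 12146 none. limma 3.58.1 (R 4.3.3) was fitted to all 8 arrays with 1 mean per group and moderated variances, and Benjamini-Hochberg adjustment took in all 21789 probe sets, with no minimum fold. The methods' filter was kept as an alternative, because it drops genes that do not move. All 36 genes are named, and of the other pathway genes the called ones, at most 4 per role with the largest change. Genes, roles and lists were chosen with earlier results of these data known, and no test was run over a list. Alternatives were leaving out each array, fitting only the arrays compared, centring each array on its median, a second quantile normalization, adding 16 before log2, filters on level, averaging probe sets of a gene, and no moderation. Promoters are RefSeq sequences on GRCm38.p6. Figures used matplotlib 3.10.9.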

Additional observations from a re-analysis of the deposited data

How the results depend on the processing

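Of 3128 single-gene values under the alternatives, 0 called values changed direction, 119 lost and 39 gained a call, and 154 uncalled values changed sign. Genes called higher in viAPs numbered 0 when only the arrays compared were fitted, after a second quantile normalization or without moderation. They numbered 9 when arrays were centred. Of all 21789 probe sets, 3135 were called higher in viAPs after centring and 833 after quantile normalization, against 1841 on the deposited values. The other pathway genes called there numbered 0 with only the arrays compared, 5 after quantile normalization and 2 without moderation. Over both depots 16 genes were higher after centring, 6 with the methods' filter, and 0 after quantile normalization or without moderation. Of all 21789 probe sets, 4120 were called higher there after centring and 1528 after quantile normalization, against 2632 on the deposited values. Ddit3 was the 1 gene lower after quantile normalization, where 641 probe sets were lower. Shmt2 was the 1 gene lower with the methods' filter or with a filter on level. Other pathway genes over both depots numbered 12 after quantile normalization and 10 without moderation. Psat1 was the 1 gene higher in viAPs than scAPs on HFD with only the arrays compared, centring, the methods' filter or a filter on level.

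Quantile normalization brought the viAP median of probe sets above 7 to 0.07, and centring brought it to 0.44. The folding and amino acid medians were then 0.20 and 0.17 after quantile normalization and 0.57 and 0.48 after centring. After quantile normalization they were 0.018 and 0.030 in scAPs and 0.18 and 0.081 over both depots, and Atf5, Ddit4, Ppp1r15a, Phgdh, Slc7a1 and Syvn1 changed sign in viAPs. The cause was not tested.

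Leaving out 1 array at a time gave 0 to 5 genes higher in viAPs, 0 to 9 higher and 0 to 1 lower over both depots, 0 to 1 for the difference of changes and 0 to 1 for the depots on HFD. Other pathway genes numbered 0 to 31 in viAPs and 8 to 39 over both depots. The folding median ran over 0.34 to 0.65 in viAPs, 0.074 to 0.36 in scAPs, 0.29 to 0.42 over both depots, 0.12 to 0.40 for the difference of changes, -0.025 to 0.14 for the depots on HFD and -0.26 to -0.053 on SD. The amino acid median ran over 0.19 to 0.44, 0.09 to 0.28, 0.17 to 0.34, 0.021 to 0.30, 0.09 to 0.28 and -0.17 to 0.14 in the same order. No paired analysis was run, because the labels do not say whether viAP and scAP pools came from the same mice. The 8 pools were treated as independent.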

Other observations

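The ER chaperone genes best known as readouts of the unfolded protein response, Hspa5 (BiP) and Hsp90b1 (GRP94), lay outside the rule for named genes and were chosen after their values were seen. In viAPs, 8.45% of all probe sets and 20.6% of those above 7 were called higher. The median difference of probe sets above 7 was 0.30 in viAPs and 0.18 in scAPs. Hspa5 was at 12.08 and 11.98 in HFD viAPs and 11.46 and 11.26 in SD viAPs (0.67, limma adjusted p = 0.0260), and at 12.18 and 12.09 in HFD scAPs and 11.58 and 11.32 in SD scAPs (0.68, adjusted p = 0.0644). Its change was of nearly the same size in both depots, with a difference between them of -0.01 (adjusted p = 0.997). Hsp90b1 was at 11.61 and 11.54 in HFD viAPs and 10.94 and 10.78 in SD viAPs (0.72, adjusted p = 0.0169), and at 11.63 and 11.67 in HFD scAPs and 11.28 and 11.07 in SD scAPs (0.47, adjusted p = 0.123). Without the array labelled SD viAP replicate 4 the viAP differences were 0.57 (adjusted p = 0.121) and 0.64 (adjusted p = 0.0857).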
